A study of Citrus trifoliata and Citrus junos with 20 samples.

Results

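The roots of 2 citrus rootstocks grown in a nutrient solution of pH 6.5, which the study took as the normal condition, were compared by small RNA sequencing. The comparison set 3 libraries of trifoliate orange (Poncirus trifoliata, Pt), described by the study as sensitive to alkaline conditions, against 3 libraries of Ziyang xiangcheng (Citrus junos, Cj), described as tolerant. These 6 libraries belong to a series of 20, of which 18 are small RNA libraries of both rootstocks at pH 6.5, at pH 8.0 and at pH 9.5 and 2 are degradome libraries that were not analysed here. Each library came from the pooled roots of 3 seedlings after 8 weeks of hydroponic culture, and no source says whether the pools came from separate vessels. The p-values therefore speak only of how far these pools spread, which may be technical. Every listed miRNA was taken, which gave 100 miRNAs, 49 known and 51 predicted from this series. No root marker is among the listed small RNAs, so the tissue label itself was not checked.

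Plant miRNAs are short RNAs cut from hairpin precursors by the DCL1 enzyme. The strand that is loaded into an ARGONAUTE protein guides it to mRNAs with a nearly complementary site, which are then cleaved or less translated, while the opposite strand of the duplex is mostly lost. Conserved families such as MIR159, MIR166 and MIR156 act on transcription factors that set growth and development, and others act on genes of copper, phosphate or sulfate use. Small RNAs of 24 nt are usually made by other Dicer enzymes and are best known from repeats and DNA methylation.

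The mature sequences on which the results turn are given first, in lower case with bases 2 to 8, the seed, in capitals. The following 7 had reads in every Cj library and were at or near 0 in Pt, and csi-miRN42 has the same sequence as csi-miRN41.
csi-miRN04: uAUUGCAUuauuuuaauacuggug
csi-miRN16: uUCGUUCGuugaaacucuaaa
csi-miRN41: uUUCUCUUaucuuuuaucugug
csi-miRN30: uUGUCGCAggagcguuggcacc
csi-miRN44: gUACUGUAgcugugagggggacgu
csi-miRN12: aUCUAUUUggaugaagauaagggc
csi-miRN27: gAAACAACuucgugagguaggaga

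The next 3 showed the opposite pattern, with reads in Pt and at most 3 reads in any Cj library. No seed was shared among these 10 sequences.
csi-miRN32: aUUCAAGAaagcuguggaaaa
csi-miRN21: cGGGUUAUaaauucggguuga
csi-miRN06: aAAAUUUUgagggacuaaugaua

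The last set holds sequences with high counts in both rootstocks and a difference between them. The 18 bases from position 1 of csi-miR477b recur from position 2 of csi-miR473, so the seeds of these MIR477 members are offset by 1 base.
csi-miRN52: uGAGCUGUuuggcuauucucgc
csi-miRN50: aCAGGAGGuggaacaaauaugaaa
csi-miR398: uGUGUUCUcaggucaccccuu
csi-miR477b: cUCUCCCUcaagggcuucucu
csi-miR473: aCUCUCCCucaagggcuucgc
csi-miR479: uGUGAUAUugguucggcucauc
csi-miR390: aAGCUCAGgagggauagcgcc

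The listed miRNAs held 390658, 440396 and 394674 reads in the Cj libraries and 539710, 654737 and 623704 in the Pt libraries. Values are CPM, the counts scaled to a common total of these reads after TMM scaling, with no term for length. An order of miRNAs by level is thus an order of their reads. Reads held under more than 1 name, as for csi-miRN41 and csi-miRN42, are counted under each. Replicates correlated at 0.982 to 0.993 on the log2 scale. The first principal component, with 92.6% of the variance, separated the rootstocks, and the second, with 3.7%, set Pt replicate 1 apart from the other Pt libraries. Reads of both rootstocks were matched to the Citrus sinensis genome, so a lower count and a mature sequence that departs from that reference cannot be told apart. In whole roots, fewer cells of a type and less RNA per cell cannot be told apart either.

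Of 96 miRNAs tested, 61 differed between Pt and Cj at an adjusted p under 0.05, which is 63.5% of those tested (edgeR quasi-likelihood test with Benjamini-Hochberg adjustment). Of these, 28 were higher in Pt (29.2%) and 33 were lower in Pt (34.4%). The differences were often large, with 19 called miRNAs more than 2-fold higher and 23 more than 2-fold lower in Pt. At the extremes, 3 were more than 16-fold higher and 8 more than 16-fold lower, all of them predicted miRNAs, with csi-miRN41 and csi-miRN42 counted as 2. Predicted miRNAs were found in this series, so those high in a single rootstock could enter the list. Since the study required presence in each replicate, reads in all libraries of the higher rootstock are no separate evidence. The median log2 fold change of Pt over Cj (log2FC) of all tested miRNAs was -0.04. The 6 libraries separated without overlap for 68 of the 96 (70.8%), among them 59 of the 61 called. With library sizes taken from the total mapped reads, the median moved by -0.19 and 24 were called higher and 39 lower.

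**Figure D1:**
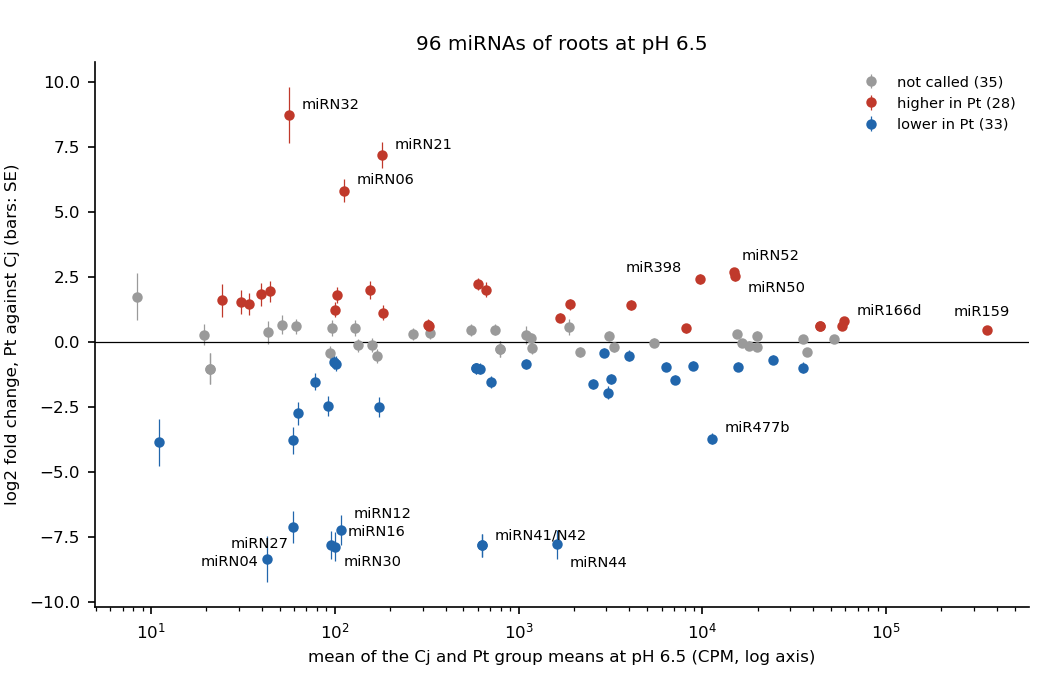
Log2FC of Pt against Cj at pH 6.5 (vertical axis, bars give the SE) against the mean of the group means in CPM (horizontal log axis) for the 96 tested miRNAs. The 28 miRNAs higher in Pt and the 33 lower in Pt spread over the whole range of levels, while the 11 beyond 16-fold lie to the left of csi-miR398 and csi-miR477b. The fitted values of csi-miRN04 and csi-miRN32 depend on the prior count, since 1 rootstock has no read.

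The most abundant miRNA of Cj that was nearly absent from Pt was csi-miRN44, a 24-nt predicted miRNA from a hairpin on unplaced sequence. It had 1467, 1296 and 1572 reads in Cj and 14, 4 and 6 in Pt, or 3206 ± 441 against 15.3 ± 12.9 CPM (SD, n = 3). The groups did not come near each other, and the log2FC was -7.79 with an SE of 0.55 (edgeR adjusted p = 1.36e-12). Without Pt replicate 1, which held 14 of these reads, it was -8.55. The 22-nt csi-miRN41 had 502, 665 and 547 reads in Cj and 4, 2 and 3 in Pt, a 228-fold difference (log2FC -7.83 ± 0.43 SE, edgeR adjusted p = 1.34e-14). Its hairpin window on chromosome 4, from 7873462 to 7873711 on the minus strand, overlaps that of csi-miRN42, and both names carry the same reads.

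5 further predicted miRNAs of Cj had from 0 to 2 reads in the 3 Pt libraries together. csi-miRN04 had 42, 37 and 37 reads in Cj and none in Pt, so that it was at least 48.9-fold higher in Cj when 3 reads over the Pt group are taken as the floor. That bound was lowest, at 30.9-fold, without Pt replicate 2, since fewer libraries then share the floor. csi-miRN16 had 92, 96 and 82 reads in Cj and 1 read in Pt, a ratio of 342 with a 95% exact counting interval from 60.8 to 13500. Of csi-miRN30 there were 98, 79 and 79 reads in Cj and 1 in Pt, a ratio of 324 (57.6 to 12800). Both lone Pt reads sat in single libraries, and without them the differences were at least 83.1-fold for csi-miRN16 (without Pt replicate 1) and at least 69.0-fold for csi-miRN30 (without Pt replicate 3).

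csi-miRN12, of 24 nt, had 82, 109 and 103 reads in Cj and 0, 1 and 1 in Pt, a ratio of 186 (51.0 to 1540). csi-miRN27, a 24-nt sequence that the files assign to MIR477, had 59, 55 and 46 reads in Cj and 0, 0 and 1 in Pt, a ratio of 203 (35.8 to 8050), or at least 43.1-fold without Pt replicate 3. These ratios and intervals cover counting error only. The 12 libraries at other pH values are not contrasted here, but they share the fit and the list of predicted miRNAs. Among them csi-miRN27 had 27 to 69 reads in each Cj library and none in Pt. There csi-miRN04 had 48 to 99 reads in Cj against 0 to 2 in Pt, and csi-miRN44 had 1087 to 2994 against 4 to 15.

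csi-miRN28 and csi-miRN01 completed the 10 largest falls in Pt. csi-miRN28, a low-count 23-nt sequence assigned to MIR167, had 9, 8 and 11 reads in Cj and 2, 0 and 0 in Pt, a ratio of 17.7 (4.47 to 153). Both Pt reads were in replicate 1, without which the bound was at least 8.61-fold. csi-miRN01 had 48, 53 and 49 reads in Cj and 10, 1 and 2 in Pt, with a log2FC of -3.79 ± 0.53 (SE, edgeR adjusted p = 5.88e-07) that became -5.33 without Pt replicate 1.

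In the other direction csi-miRN21, from a hairpin on chromosome 8 (9708300 to 9708549, plus strand), had 1, 2 and 0 reads in Cj and 169, 242 and 205 in Pt. The ratio was 162 with a 95% exact interval from 55.3 to 789, and 315 without Cj replicate 2 or 109 without Cj replicate 3. csi-miRN06, of 23 nt, had 3, 1 and 1 reads in Cj and 84, 188 and 114 in Pt (log2FC 5.81 ± 0.45 SE, edgeR adjusted p = 1.23e-11), and a log2FC of 6.52 without Cj replicate 1. The groups of both miRNAs lay far apart. In the 12 libraries at pH 8.0 and 9.5, csi-miRN21 stayed at 0 to 4 reads in Cj and 31 to 242 in Pt, and csi-miRN06 at 0 to 2 against 14 to 134.

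csi-miRN32 had no read in the 3 Cj libraries and 104, 28 and 45 reads in Pt, so that it was at least 46.6-fold higher in Pt (3 reads over the Cj group as the floor). That bound was 26.4-fold without Pt replicate 1, and 30.1-fold to 31.8-fold without any 1 Cj library. The sequence lies on the arm opposite csi-miR396b, a guide against GROWTH-REGULATING FACTOR genes, in a hairpin on chromosome 7 (3041240 to 3041489, minus strand). At pH 8.0 and 9.5 csi-miRN32 had 0 to 7 reads in the Cj libraries and 4 to 156 in those of Pt. csi-miR396b itself was abundant in both rootstocks, with 17696, 20878 and 18946 reads in Cj and 18283, 18085 and 18038 in Pt. Its log2FC was -0.39 (SE 0.17) at an edgeR adjusted p of 0.0502, just short of the threshold. csi-miR396b passed under several alternatives, among them DESeq2 size factors (adjusted p = 0.0361) and limma-voom (adjusted p = 0.0312). The edgeR adjusted p was 0.000902 with total mapped reads as library sizes and 0.00461 with the 6 libraries at pH 6.5 alone. It was not called in the DESeq2 test or without the low-count filter.

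**Figure D2:**
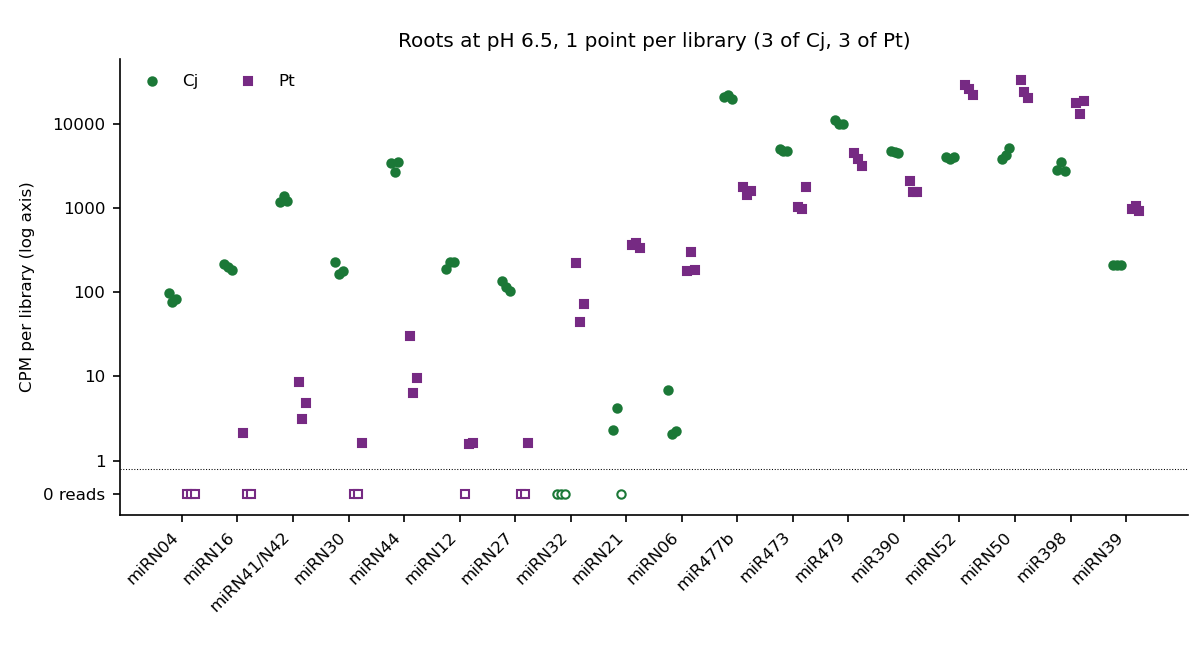
CPM of 17 miRNAs and of the pair csi-miRN41 and csi-miRN42 in each library at pH 6.5 (log axis, 1 point per library, green circles for Cj and purple squares for Pt, open symbols for 0 reads). No miRNA shown overlaps between the rootstocks, and the first 10 columns hold those at or near 0 in 1 rootstock.

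Such opposite strands gave a second reading of the same hairpins. Among the listed miRNAs, 10 hairpins had both strands counted, and in 9 of them both strands had log2FC values of the same sign. For csi-miR393 and csi-miRN18 the count of paired bases, 7, was made at a fixed alignment without gaps. It does not measure how well these strands pair. The hairpin of csi-miR479 and csi-miR171b, members of the MIR171 family that acts on SCARECROW-LIKE genes, was lower in Pt on both sides. csi-miR479 fell from 4747, 4812 and 4502 reads in Cj to 2063, 2401 and 1948 in Pt (log2FC -1.45 ± 0.17 SE, edgeR adjusted p = 3.11e-08). csi-miR171b fell from 53, 55 and 49 reads to 17, 15 and 36 (log2FC -1.54 ± 0.33 SE, edgeR adjusted p = 0.000168).

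csi-miR390, which starts the TAS3 small RNAs that act on auxin response factors, and its opposite strand csi-miRN19 both fell, with log2FC values of -1.44 and -1.55. csi-miR482a-3p and csi-miR482a-5p fell by 0.95 and 1.03 on the log2 scale, and csi-miRN07 and csi-miR535 by 1.01 and 0.84. csi-miR172a-3p and csi-miR172a-5p rose by 1.12 and 1.53, and csi-miR166e-3p and csi-miR166e-5p by 0.60 and 0.52. csi-miR162-3p had a value of -0.42 that passed (edgeR adjusted p = 0.0301), and its partner csi-miR162-5p one of -0.55 that did not (edgeR adjusted p = 0.0835). Both calls changed with the processing. csi-miR162-3p lost its call without the low-count filter (edgeR adjusted p = 0.0614) and without Cj replicate 1 (0.0969), Cj replicate 2 (0.0695) or Pt replicate 3 (0.148), and csi-miR162-5p passed with total mapped reads (0.0108), limma-voom (0.0366) and without Pt replicate 1 (0.0239).

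The log2 ratio of the abundant to the other strand, of counts plus 0.5, was 8.46 in Pt for csi-miR396b and csi-miRN32. In Cj, where csi-miRN32 had no read, the ratio of this pair is set by the added 0.5 and is not given. For csi-miR393 and csi-miRN18 it was 3.99 in Cj and 2.60 in Pt, a difference of -1.40 (exact permutation p = 0.1), or -0.85 (exact permutation p = 0.2) with 5 reads added. csi-miR393, which acts on the TIR1 and AFB auxin receptors, rose by 0.60 and csi-miRN18 by 1.82, or 2.58 without Cj replicate 2. With 3 libraries against 3 the smallest p of an exact permutation test is 0.1, and after adjustment over the 21 pairs compared it was 0.42. In the other 8 hairpins the difference of log2 ratios lay between -1.22 and 0.16, with exact permutation p-values from 0.3 to 0.9. The value of -1.22, for csi-miR171a and csi-miRN05, was -0.43 with 5 reads added, and -1.85 without Cj replicate 1 or -0.41 without Cj replicate 2. These p-values do not show that the ratios were alike.

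**Figure D3:**
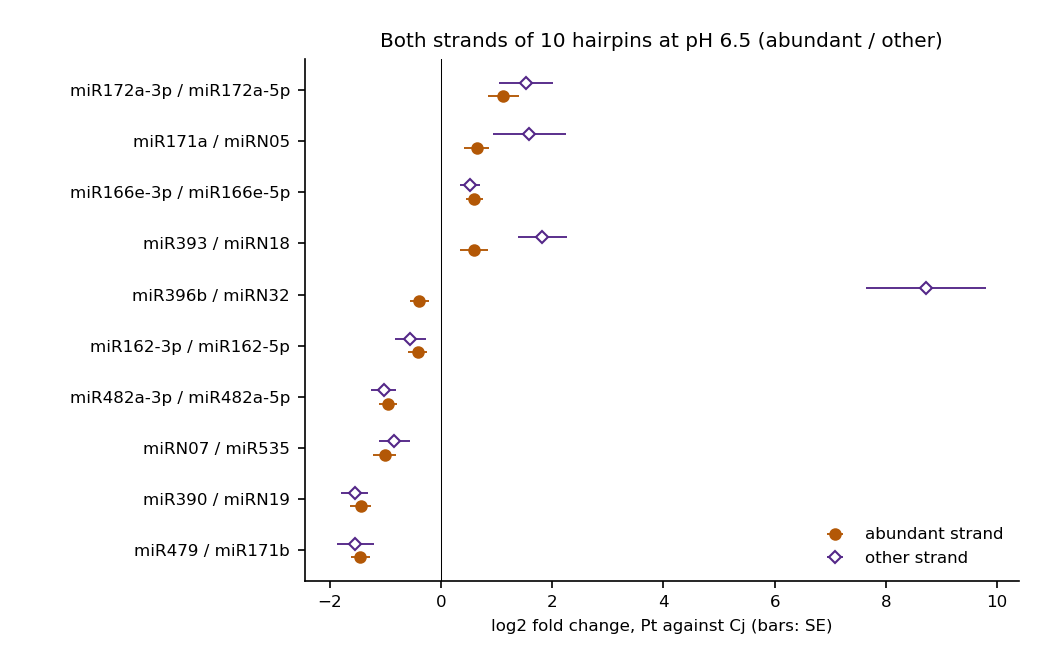
Log2FC of Pt against Cj at pH 6.5 (bars give the SE) for the abundant strand (filled circles) and the other strand (open diamonds) of 10 hairpins. The strands lie on the same side of 0 in 9 hairpins, and csi-miRN32 at 8.72 stands apart from csi-miR396b at -0.39. The value of csi-miRN32 depends on the prior count, since no Cj library has a read.

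Among abundant miRNAs, csi-miRN52 and csi-miRN50 showed the largest rises in Pt. csi-miRN52, of 22 nt with 4 predicted hairpins on chromosome 2, had 1750, 1832 and 1825 reads in Cj and 13474, 16369 and 13639 in Pt. This was a 6.42-fold difference, from 3985 ± 147 to 25591 ± 3506 CPM (SD, n = 3), with a log2FC of 2.68 ± 0.16 (SE, edgeR adjusted p = 7.5e-14). csi-miRN50, a 24-nt sequence assigned to MIR9560 and placed on chromosome 3, rose 5.83-fold, from 4393 ± 708 to 25629 ± 6557 CPM (SD, n = 3; edgeR adjusted p = 1.82e-11). Its reads were 1620, 2044 and 2311 in Cj and 15341, 14961 and 12604 in Pt.

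csi-miR398, which acts on copper/zinc superoxide dismutases, had 1231, 1698 and 1242 reads in Cj and 8132, 8234 and 11688 in Pt. Each Pt library lay above each Cj library, and the rise was 5.37-fold (log2FC 2.43 ± 0.19 SE, edgeR adjusted p = 1.82e-11). The other members of the copper list, csi-miR397 (laccases) and csi-miR408 (blue copper proteins), did not pass. csi-miR397 was at 0.13 (edgeR adjusted p = 0.554), or -0.04 with total mapped reads as library sizes, and csi-miR408 at -0.15 (edgeR adjusted p = 0.441), or 0.03 without Pt replicate 1. Thus 1 of 3 was called.

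Other rises among the 10 largest were csi-miRN39 (4.67-fold), csi-miRN38 (4.02-fold), csi-miR530a (3.99-fold) and csi-miRN20 (3.83-fold). csi-miRN39 and csi-miRN38 are of 24 nt, and their Cj values of 211 ± 2.04 and 265 ± 55.0 CPM stood against 984 ± 76.9 and 1069 ± 232 in Pt (SD, n = 3). csi-miR530a differs from csi-miR530b only at position 17, counted from the 5′ end. It had 24, 28 and 32 reads in Cj and 93, 132 and 207 in Pt, while csi-miR530b, with 6, 3 and 2 reads against 3, 2 and 1, was below the filter on low counts. csi-miRN20 departs from csi-miR396b at positions 7, 20 and 21, and rose from 7, 12 and 6 reads to 24, 58 and 42. With csi-miRN32, 2 of the 4 members of the MIR396 list were thus higher in Pt. In the fit used here csi-miR396b and csi-miR396c (log2FC 0.45, edgeR adjusted p = 0.0817, or 0.67 and 0.0173 without Pt replicate 1) did not pass. The family sum, held mostly by csi-miR396b, was at -0.24 (edgeR adjusted p = 0.166).

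The 3 members of MIR477 were all lower in Pt. csi-miR477b had 9041, 10587 and 8897 reads in Cj and 822, 897 and 996 in Pt, a 13.1-fold fall (log2FC -3.72 ± 0.21 SE, edgeR adjusted p = 2.83e-14) and the largest fall of a known miRNA. csi-miR473 had 2181, 2272 and 2150 reads in Cj and 475, 606 and 1099 in Pt, a 3.89-fold fall (edgeR adjusted p = 1.26e-07). With csi-miRN27 the list median was -3.72, against -0.04 for all tested miRNAs. Whether reads of the shared 18 bases were counted under both names was not tested.

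csi-miRN30 and csi-miRN34, both assigned to MIR3627, are predicted from hairpin windows 3735 bases apart on opposite strands of chromosome 6, and their sequences differ at positions 8, 13, 15 and 17. Both were lower in Pt. csi-miRN34 had 159, 139 and 104 reads in Cj and 14, 38 and 40 in Pt, a 5.64-fold fall (log2FC -2.50 ± 0.39 SE, edgeR adjusted p = 3.42e-06).

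Among the lists of families with a known class of target and more than 1 tested member, SPL had every member called lower in Pt, as had MIR477 above. In the HD-ZIP III list 5 of 6 members were called higher. The lists follow the families that the files assign, and are read against the 63.5% called among all tested miRNAs. They hold opposite strands as well as guides, so a listed member need not act on the named targets.

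All 5 members of the SPL list, assigned to MIR156 and MIR535, were lower in Pt. The guide strands of these families act on SQUAMOSA PROMOTER-BINDING PROTEIN-LIKE genes and hold plants in the juvenile phase. csi-miR156 had 13123, 14699 and 12785 reads in Cj and 9151, 11003 and 11419 in Pt, and fell 1.62-fold in CPM (log2FC -0.69 ± 0.18 SE, edgeR adjusted p = 0.00105). csi-miRN49, of 22 nt and also assigned to MIR156, has a seed other than that of csi-miR156. Its later bases include the complement of the first bases of csi-miR156, so csi-miRN49 may be an opposite strand of this family. That was not tested, and neither were its targets. csi-miRN49 was the third most abundant miRNA of Cj, with 47009 ± 3924 CPM there and 23672 ± 8795 in Pt (SD, n = 3; log2FC -0.99, edgeR adjusted p = 8.74e-05). The other members are csi-miR535 and its opposite strand under the names csi-miRN07 and csi-miRN08, which share 1 sequence and the same reads. The list median of -0.99 became -1.22 with total mapped reads as library sizes, and all 5 were lower under each of the 4 other scalings tried. csi-miR535 was not called without Pt replicate 1 (log2FC -0.66, edgeR adjusted p = 0.0593), which left 4 of 5. None of the 5 passed a test against a 2-fold change.

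Of the 6 MIR166 members, 5 were higher in Pt. The guide strands of this family act on class III HD-ZIP genes of vascular and shoot patterning, and csi-miR166e-5p is an opposite strand. csi-miR166d rose from 43483 ± 5153 to 75133 ± 1185 CPM (SD, n = 3; 1.73-fold, edgeR adjusted p = 0.000107), and csi-miR166c from 46103 ± 1001 to 69164 ± 6051 (SD, n = 3; edgeR adjusted p = 0.000947). csi-miR166a and csi-miR166e-3p had log2FC values of 0.60 each. csi-miR166b, at 0.12, did not pass (edgeR adjusted p = 0.46) and was at -0.07 with total mapped reads as library sizes. csi-miR166e-5p lost its call with total mapped reads (edgeR adjusted p = 0.0669) and without Cj replicate 3 (0.0875) or Pt replicate 2 (0.184), each of which left 4 of 6. The members are not separate measurements. The 20 bases of csi-miR166c begin csi-miR166a, csi-miR166b, csi-miR166d and csi-miR166e-3p as well, and the counts of csi-miR166a and csi-miR166e-3p were equal in 17 of 18 libraries. Summed as 1 family, MIR166 had a log2FC of 0.71 ± 0.13 (SE, edgeR adjusted p = 5.98e-05), from a fit of 58 families and single miRNAs. That sum adds the counts of all 6 names, so reads held under more than 1 name enter it more than once.

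In the auxin list of 11 tested members, 2 were higher, 5 lower and 4 not called, with a median of -0.24. The 3 MIR160 members, which act on auxin response factors, share their first 19 bases and depart from each other only at positions 20 and 21. csi-miRN43 fell from 1610, 2014 and 1584 reads in Cj to 541, 882 and 724 in Pt (log2FC -1.62 ± 0.20 SE, edgeR adjusted p = 8.98e-08). csi-miRN45 was at -0.53 (edgeR adjusted p = 0.0263, and 0.0546 to 0.171 without the low-count filter or without any 1 of 4 libraries), and csi-miRN40 had -0.24 (edgeR adjusted p = 0.379). The differences between these members were not tested.
csi-miRN43: uGCCUGGCucccuguaugcuu
csi-miRN45: uGCCUGGCucccuguaugccg
csi-miRN40: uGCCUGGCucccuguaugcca

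In the rest of the auxin list, csi-miR390, csi-miRN19 and csi-miRN28 were lower in Pt and csi-miR393 and csi-miRN18 higher. csi-miR164, csi-miRN09 and csi-miR167b were not called. csi-miRN19 and csi-miRN18 are the opposite strands of csi-miR390 and csi-miR393, and csi-miRN28 does not share the seed of csi-miR167b. csi-miR393 was called at an edgeR adjusted p of 0.0404 and lost the call, at edgeR adjusted p-values from 0.0628 to 0.184, under 3 alternatives of scaling or merging and without any 1 of 4 libraries. csi-miR164, which acts on NAC genes, had a log2FC of -0.19. csi-miR167b, which acts on ARF6-type genes, was at -0.04, and at 0.01 with DESeq2 size factors. With total mapped reads as library sizes, 1 member of the list was higher and 6 lower.

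**Figure D4:**
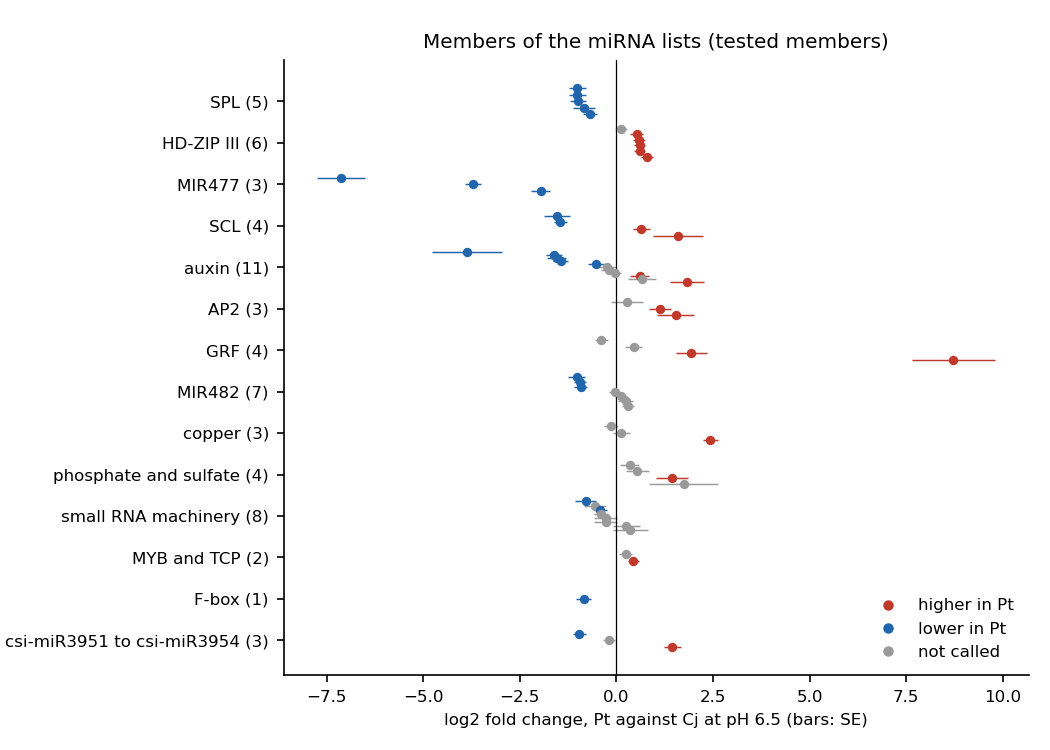
Log2FC of Pt against Cj at pH 6.5 (bars give the SE) for each tested member of the miRNA lists, with the number tested in brackets. Red marks members higher in Pt, blue those lower in Pt and grey those not called. All 5 SPL members and all 3 MIR477 members lie below 0, and the 6 MIR166 members of the HD-ZIP III list lie above 0, of which csi-miR166b was below 0 (-0.07) with total mapped reads as library sizes.

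The MIR171 members of the SCL list split by hairpin, with csi-miR479 and csi-miR171b lower and csi-miR171a and csi-miRN05 higher in Pt. csi-miR171a had 113, 119 and 109 reads in Cj and 153, 245 and 286 in Pt (log2FC 0.64 ± 0.22 SE, edgeR adjusted p = 0.0136), and csi-miRN05 rose from 10, 1 and 5 reads to 19, 30 and 13. Neither was called with total mapped reads as library sizes or without Cj replicate 3, and csi-miR171a was not called without Pt replicate 3 either. csi-miRN05, at 1.59, was called at an edgeR adjusted p of 0.0358, though its libraries overlapped (23.2 CPM in Cj replicate 1, 20.9 in Pt replicate 3). It was not called without Cj replicate 2 or Pt replicate 2. Nor was it called with the 6 libraries at pH 6.5 alone (edgeR adjusted p = 0.0618) or with TMM factors from the known miRNAs (0.0543). Its log2FC ranged from 1.07 without Cj replicate 2 to 2.43 without Cj replicate 1. In the AP2 list csi-miR172a-3p and csi-miR172a-5p were higher, with csi-miR172a-3p at 47, 52 and 57 reads in Cj and 105, 167 and 162 in Pt, and csi-miR172c, at 0.28, was not called. csi-miR172a-5p, with 2 to 10 reads in Cj, lost its call without Cj replicate 3 (log2FC 1.07).

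MIR482, whose guide strands act on NBS-LRR disease resistance genes, had 3 of 7 members lower in Pt and a median of -0.04. Among these 3 was the opposite strand csi-miR482a-5p. csi-miR472, at 0.30 (edgeR adjusted p = 0.0952), was called higher under 4 alternatives, among them DESeq2 size factors (adjusted p = 0.0438). csi-miR482a-3p fell from 20699 ± 1028 to 10729 ± 2024 CPM (SD, n = 3; edgeR adjusted p = 1.19e-05) and csi-miR482c from 11688 ± 1024 to 6158 ± 1043 (SD, n = 3; edgeR adjusted p = 2.76e-05). The most abundant member, csi-miRN51, had 49646 ± 1100 CPM in Cj and 53821 ± 12412 in Pt (SD, n = 3) and did not pass (edgeR adjusted p = 0.47). csi-miRN48, which differs from csi-miR482a-3p at positions 5 and 14, had a log2FC of -0.04, or 0.03 with library sizes without the 5 most abundant miRNAs. The family sum had a log2FC of 0.02 (SE 0.09).

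Of the phosphate and sulfate list, 4 of 6 members had enough reads for the test and csi-miR399e alone was called. It had 5, 8 and 12 reads in Cj and 20, 38 and 29 in Pt (log2FC 1.44 ± 0.42 SE, edgeR adjusted p = 0.00433). MIR399 acts on PHO2, a regulator of phosphate uptake. csi-miR399d, which departs from csi-miR399e only at position 13, had a log2FC of 0.34, csi-miR399b one of 0.54 and csi-miR827, a regulator of phosphate transporters, one of 1.74 (edgeR adjusted p = 0.0918). csi-miR827 was called without Cj replicate 2 (log2FC 3.23, edgeR adjusted p = 0.0321) or Pt replicate 2 (log2FC 2.10, edgeR adjusted p = 0.0409), and csi-miR399b without Cj replicate 3 (log2FC 0.79, edgeR adjusted p = 0.0472). csi-miR399a had 1, 2 and 5 reads in Cj and none in Pt, which makes it at least 3.38-fold higher in Cj (1.89-fold without Cj replicate 3, and 2.13-fold to 2.46-fold without any 1 Pt library). csi-miR395, which acts on sulfate assimilation genes, had 0, 3 and 0 reads in Cj and 9, 5 and 8 in Pt, a ratio of 5.79 with a counting interval from 1.74 to 30.2, and all 3 Cj reads came from replicate 2, without which it was at least 3.75-fold higher in Pt.

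In the small RNA machinery list, csi-miR162-3p, which acts on DCL1, and csi-miRN17, assigned to MIR1515, were lower in Pt and the other 6 of 8 tested members were not called. With limma-voom, with total mapped reads or without Pt replicate 1, 4 members were lower. Without the low-count filter, Cj replicate 1, Cj replicate 2 or Pt replicate 3 only 1 was lower, and without Cj replicate 1 csi-miR1515 was higher (log2FC 1.37 in place of 0.36). csi-miRN17 lost its call without Pt replicate 1 (edgeR adjusted p = 0.0514). csi-miR403, which acts on AGO2 in Arabidopsis thaliana, was at -0.39 (edgeR adjusted p = 0.0651), and at -0.63 without Pt replicate 2 (edgeR adjusted p = 0.0107). csi-miR394, the F-box list's only member, had 672, 652 and 580 reads in Cj and 439, 428 and 443 in Pt (log2FC -0.85 ± 0.20 SE, edgeR adjusted p = 0.000604). Among csi-miR3951 to csi-miR3954, csi-miR3954 rose from 1017 ± 74.8 to 2776 ± 147 CPM and csi-miR3952 fell from 8370 ± 422 to 4298 ± 843 (SD, n = 3), csi-miR3951 was not called at -0.20, and csi-miR3953, with 2 reads in Cj and 8 in Pt, was not tested.

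csi-miR159, which acts on GAMYB-like MYB genes, was the most abundant miRNA of both rootstocks. It had 298190 ± 16172 CPM in Cj and 405328 ± 34367 in Pt (SD, n = 3), a 1.36-fold difference (log2FC 0.44 ± 0.14 SE, edgeR adjusted p = 0.00586) that was not called without Cj replicate 3 (edgeR adjusted p = 0.0715) or Pt replicate 2 (edgeR adjusted p = 0.106). It took 33.9%, 33.5% and 31.7% of the listed reads in Cj and 37.2%, 40.4% and 36.5% in Pt. The MIR166 lines together, with reads held under more than 1 name counted under each, took 22.1% ± 0.953 in Cj and 27.8% ± 1.35 in Pt (SD, n = 3). csi-miR319, whose targets are TCP genes, was not called, at 0.24. The 5 most abundant miRNAs of Cj were csi-miR159, csi-miRN51, csi-miRN49, csi-miR166c and csi-miR166d, and in Pt csi-miR166a, level with csi-miR166e-3p, stood in the place of csi-miRN49.

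Known and predicted miRNAs were called at shares of 60.0% (27 of 45) and 66.7% (34 of 51), near the background. The median absolute log2FC was 0.60 for known and 1.55 for predicted miRNAs, a description over miRNAs that are not replicates. Predicted miRNAs were found in this series, so a sequence high in 1 rootstock alone could enter the list. These medians therefore do not compare like sets. Of the 24 predicted miRNAs of 23 to 24 nt, 7 were higher and 8 lower in Pt, and of the 27 of 21 to 22 nt, 7 were higher and 12 lower. The 22 miRNAs of 24 nt took 1.98% ± 0.207 of the listed reads in Cj and 3.95% ± 0.603 in Pt (SD, n = 3). All Pt libraries lay above all Cj libraries, at the smallest p that an exact permutation test of 3 against 3 allows (0.1). Without csi-miRN50 the shares were 1.49% and 1.57% and overlapped (exact permutation p = 0.6). The larger shift was in the 19 miRNAs of 22 nt, with 26.1% ± 0.899 in Cj and 21.9% ± 1.08 in Pt (SD, n = 3), where all Pt libraries lay below all Cj libraries (exact permutation p = 0.1). Single members weigh on this class too. csi-miRN49 fell from 47009 CPM in Cj to 23672 in Pt, and csi-miRN52 rose from 3985 to 25591. The share without either was not computed, so a shift of the whole class is not shown. The 51 of 21 nt took 63.2% ± 1.20 and 65.7% ± 1.65 (SD, n = 3; exact permutation p = 0.1), which overlapped as shares of total mapped reads (exact permutation p = 0.4). Adjusted over the 5 length classes compared, each p of 0.1 became 0.125. The classes go by the length of the listed sequence, which need not be that of each read. The counts of csi-miR166a, of 22 nt, and csi-miR166e-3p, of 21 nt, were equal in 17 of 18 libraries and enter both classes.

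The same contrast at pH 8.0 and at pH 9.5 compares 12 other libraries and calls 59.4% of the 96 miRNAs at each pH. These libraries share the fit with those at pH 6.5, so the contrasts are not fully independent. Of the 61 miRNAs called at pH 6.5, 44 were called in the same direction at pH 8.0 and 38 at pH 9.5, and 37 at both. Among these 37 were 16 of the 28 that were higher in Pt, such as csi-miR398, csi-miRN50, csi-miRN39 and csi-miR172a-3p, and 21 of the 33 that were lower, such as csi-miR477b, csi-miR473, csi-miRN43 and csi-miR482a-3p. The 10 miRNAs at or near 0 in 1 rootstock were called at all 3 pH values. csi-miR394 was called in the opposite direction at pH 8.0, with a log2FC of 0.58 (edgeR adjusted p = 0.0179), and csi-miRN34 at pH 9.5, with 1.53 (edgeR adjusted p = 0.00141).

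The test of the change in the rootstock difference with pH called fewer miRNAs. At pH 8.0 it differed from that at pH 6.5 for 10 miRNAs (10.4%) and at pH 9.5 for 18 (18.8%), by the interaction term of the same edgeR model. Of the 10, 6 moved toward higher values in Pt (6.25% of those tested) and 4 toward lower (4.17%). With total mapped reads as library sizes these were 5 and 12. Of the 18, 6 moved toward higher (6.25%) and 12 toward lower values (12.5%), or 5 and 22 with total mapped reads. csi-miRN52, higher in Pt by 2.68 at pH 6.5, had log2FC values of 1.12 at pH 8.0 and 0.27 at pH 9.5, changes of -1.57 (edgeR adjusted p = 1.12e-05) and -2.41 (edgeR adjusted p = 2.71e-09). csi-miR479, lower in Pt by 1.45 at pH 6.5, had -2.66 and -3.61, changes of -1.21 (edgeR adjusted p = 0.00127) and -2.16 (edgeR adjusted p = 1.05e-07). csi-miRN34 went from -2.50 to 0.06 and 1.53, changes of 2.55 (edgeR adjusted p = 0.00446) and 4.03 (edgeR adjusted p = 3.35e-06). Pt replicate 1 at pH 8.0 held only 77255 listed reads, and the count at pH 8.0 was 9 without it. The count at pH 8.0 was 5 without Cj replicate 1 at pH 6.5, 6 without Pt replicate 3 at pH 8.0 and 15 without Pt replicate 1 at pH 6.5, and that at pH 9.5 was 29 without the last of these.

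**Figure D5:**
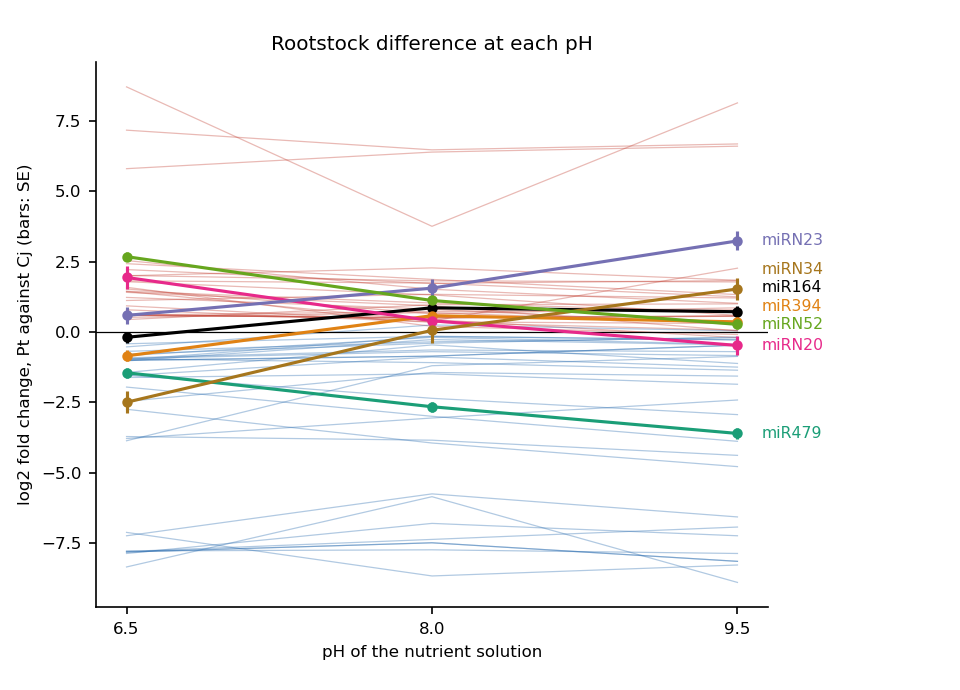
Log2FC of Pt against Cj (vertical axis) by pH of the solution (horizontal axis) for the miRNAs called at pH 6.5 (thin lines, red where higher and blue where lower in Pt at pH 6.5). Coloured lines with points and SE bars mark the 7 miRNAs with the largest changes of the rootstock difference, of which csi-miR164 and csi-miRN23 were not called at pH 6.5. csi-miRN52 falls from 2.68 to 0.27 and csi-miRN34 rises from -2.50 to 1.53.

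csi-miR164 and csi-miRN23, not called at pH 6.5, were among the 5 largest changes at pH 8.0 and at pH 9.5. csi-miR164 had log2FC values of -0.19, 0.86 and 0.72 at the 3 pH values, with a change at pH 8.0 of 1.05 (edgeR adjusted p = 0.0149) that was not called without any 1 of 3 libraries (adjusted p from 0.0506 to 0.0676). csi-miRN23 had 19, 29 and 19 reads in Cj and 40, 48 and 38 in Pt at pH 6.5, and its log2FC values were 0.59, 1.56 and 3.24, a change at pH 9.5 of 2.65 (edgeR adjusted p = 0.000112). csi-miRN20 went from 1.94 to -0.48 at pH 9.5, a change of -2.41 (edgeR adjusted p = 0.000879), and csi-miR394 from -0.85 to 0.58 at pH 8.0, a change of 1.44 (edgeR adjusted p = 0.00127).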

How the data were processed

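Small RNA libraries were made from root RNA using the NEBNext kit for small RNA and run on an Illumina HiSeq X-ten instrument. Per the study's methods and the submitters' processing notes, the authors trimmed the reads, removed structural RNA and repeats with Bowtie, matched the remainder to the Citrus sinensis genome (release not given in the sources used here), identified known miRNAs from miRBase and predicted others with miRDeep2. The deposited counts are whole, unnormalised numbers of reads per mature miRNA. The deposited TPM values are the authors' counts scaled to mapped reads, with no term for length. They served only to obtain the mapped total of each library as an alternative library size. At pH 6.5 that total was 521379 to 819289 reads, of which the listed miRNAs held 71.8% to 80.0%. The alternative is thus not independent of the listed reads. The authors' differential test was DESeq 1.10.1.

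Of 49 known and 54 predicted lines with values, 3 repeats of csi-miRN52 were dropped, which left 100 miRNAs. 1 further line held no values. Counts of all 18 small RNA libraries entered 1 edgeR 4.0.16 quasi-likelihood fit (R 4.3.3) with 1 coefficient per group (6 groups), TMM factors and a filter on low counts (filterByExpr, minimum count 10, minimum total 15). That left 96 miRNAs, so that 4 had too few reads for the test (csi-miR530b, csi-miR399a, csi-miR3953 and csi-miR395). A miRNA was called when its p, adjusted over the 96 by the Benjamini-Hochberg method, was under 0.05. The SE is the log2 fold change divided by the root of the F statistic. Ratios with 1 to 3 reads in a group carry exact conditional binomial intervals, and with 0 reads a floor of 3 reads over the group. PCR reads without molecular identifiers are not independent molecules, so intervals and floors cover counting error only. Strand ratios are of counts plus 0.5 and, like read shares, were compared by a two-sided exact permutation test. Depth was 390658 to 654737 listed reads a library, so 3 reads correspond to 4.58 to 7.68 CPM before TMM scaling.

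Named miRNAs were the 10 largest rises and falls among called miRNAs whose libraries do not overlap, the 5 most abundant of each rootstock, those with no read in 1 rootstock, members of the lists, both strands of hairpins, and the 5 largest changes of the rootstock difference at each other pH. The members and lists were chosen with earlier results of these data known. The model was tested on simulated counts. Alternatives were DESeq2 1.42.0 size factors and its test, limma-voom (limma 3.58.1), other library sizes, no filter, 6 libraries only, a replicate block, a test against a 2-fold change, merged sequences, summed families and each library left out.
No per-sample column was left unused, and the score of the predicted hairpins and the 2 degradome libraries were not used.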

Additional observations from a re-analysis of the deposited data

Results flagged for a closer look

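The difference between Pt and Cj was not the same at all pH values for the following miRNAs, by the interaction term of the edgeR fit. The 5 largest changes at each pH are given on the log2 scale. Between pH 6.5 and pH 8.0 the difference of Pt from Cj changed by 2.55 for csi-miRN34, 1.44 for csi-miR394 and 1.05 for csi-miR164. It changed by -1.57 for csi-miRN52 and by -1.21 for csi-miR479. Between pH 6.5 and pH 9.5 it changed by 4.03 for csi-miRN34 and 2.65 for csi-miRN23, by -2.41 for both csi-miRN20 and csi-miRN52 and by -2.16 for csi-miR479. The call of csi-miR164 was lost without Cj replicate 1 or Pt replicate 2 at pH 6.5 or Pt replicate 3 at pH 8.0 (edgeR adjusted p = 0.0598, 0.0506 and 0.0676). Without Pt replicate 1 at pH 9.5 the value of csi-miRN34 was 3.33.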

How the results depend on the processing

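Of 61 miRNAs called at pH 6.5, 34 (14 higher, 20 lower) passed a test against a 2-fold change, and 40 of 58 units (22 higher, 18 lower) were called with families summed. Under the other whole-table alternatives the count was 60 to 67, and 56 to 64 with 1 library left out. The change of the rootstock difference was called for 10 miRNAs at pH 8.0 and 18 at pH 9.5. At pH 8.0 the count was 17 with total mapped reads as library sizes, 16 with library sizes without the 5 most abundant miRNAs, 17 with TMM factors from the known miRNAs, 0 against a 2-fold change, and 5 to 15 with 1 library left out. The share of changes toward higher values in Pt was 60.0% there, against 29.4%, 31.2% and 29.4% under those scalings and 41.7% with DESeq2 size factors. At pH 9.5 the count was 27 with total mapped reads, 27 without the 5 most abundant, 6 against a 2-fold change and 13 to 29 with 1 library left out, and the share was 33.3% against 18.5% under both scalings.

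Of 1320 values of 78 named miRNAs under 17 alternatives, 1215 kept direction and call, 57 lost the call, 32 gained it and 16 changed sign, all of the last for miRNAs that were not called. Beside the test against a 2-fold change, 10 miRNAs lost the call under at least 1 alternative (csi-miR159, csi-miR162-3p, csi-miR166e-5p, csi-miR171a, csi-miR172a-5p, csi-miR393, csi-miR535, csi-miRN05, csi-miRN17 and csi-miRN45). With total mapped reads, the log2 fold changes that changed sign were -0.07 for csi-miR166b, -0.04 for csi-miR397, -0.01 for csi-miRN02 and -0.10 for csi-miRN51. csi-miR167b was at 0.01 with DESeq2 size factors, 0.01 in the DESeq2 test, 0.01 without a low-count filter and 0.04 without the 5 most abundant miRNAs, where csi-miRN48 was at 0.03. With 1 library left out, csi-miR1515 ranged from -0.13 to 1.37, csi-miR167b from -0.16 to 0.05, csi-miR408 from -0.26 to 0.03, csi-miRN02 from -0.28 to 0.53, csi-miRN48 from -0.12 to 0.00 and csi-miRN51 from -0.03 to 0.19. The differences of log2 strand ratios ranged from -0.09 to 0.24 for csi-miR166a and csi-miR166e-3p, -0.08 to 0.24 for csi-miR166c, -0.16 to 0.61 for csi-miR479, -0.95 to 0.23 for csi-miR172a-3p and -0.02 to 0.13 for csi-miR482a-3p. With a pseudocount of 5 reads they were -0.01 for csi-miR479 and 0.02 for csi-miR172a-3p. The cause was not tested for any of these.

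Same-numbered libraries of the rootstocks at pH 6.5 did not deviate together (r of -0.002, -0.046 and -0.257), and the fit used here has no replicate block. With 3 libraries in each group, such r values cannot show whether the numbers mark shared vessels or batches. A replicate block gave 62 calls at pH 6.5 (28 higher, 34 lower), 15 changes at pH 8.0 and 22 at pH 9.5. Depth limits the miRNAs of few reads, and 3 libraries against 3 limit the exact tests to a smallest p of 0.1.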
